A study of Mus musculus with 16 samples.

Results

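The PRC1 subunit genes were described through their own RNAs on chromatin. The 10 genes chosen were Rnf2, Ring1, Pcgf2, Pcgf3, Pcgf5, Pcgf6, Cbx7, Phc1, Phc2 and Kdm2b, and each RNA–DNA pair with one of these RNA names was counted. RNA of 9 of the 10 genes was listed in Input, among 10176 RNAs, and RNA of 8 was listed in H3K27me3-RADIP, among 10660 RNAs. Their 1001 pairs were 0.0767% of the 1305107 Input pairs, and their 1161 pairs were 0.0820% of the 1415135 H3K27me3-RADIP pairs.

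The cells were mouse embryonic stem cells (mESCs) of 1 line, PGK12.1, grown with serum and leukemia inhibitory factor and fixed with 1% formaldehyde. In RADIP, an RNA is joined to nearby chromatin DNA through a bridge adaptor, and chromatin carrying H3K27me3 is then selected with an antibody. Input was a part of the same lysate, kept without antibody selection, per the study's text. Neither group had a genetic change or a drug in its labels. The labels give 8 libraries per group, made from 4 biological replicates per the study's text, and the authors merged them into 1 table of significant pairs per group, so no replicate error can be given and no test of the conditions was possible. All intervals below are 95% intervals for counting error alone and compare these merged tables.

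Polycomb repressive complex 1 (PRC1) attaches ubiquitin to a lysine of histone H2A (H2AK119ub) and compacts chromatin. A RING1 protein (RING1A from Ring1 or RING1B from Rnf2) pairs with a PCGF protein. CBX and PHC proteins form the canonical complexes, in which CBX proteins bind H3K27me3, the mark made by PRC2. Variant complexes hold other partners, such as KDM2B, whose zinc finger binds unmethylated CpG dinucleotides, and PRC1 keeps developmental genes silent in mESCs.

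Cbx7 and Kdm2b RNA made up most of the pairs in both tables. The 8 RNAs listed in both tables stood at 988 Input and 1161 H3K27me3-RADIP pairs, giving a log2 fold change of 0.20 (0.08 to 0.32), and without Cbx7 and Kdm2b the value was 0.02 (−0.19 to 0.24). Cbx7 and Kdm2b RNA also had a larger share of pairs over 100 kb in H3K27me3-RADIP, whereas Pcgf5 RNA had a smaller share there, and the share over all pcRNA pairs (RNAs of protein-coding genes) was 36.4% and 43.7%. Over bins listed in both tables, the Kdm2b difference turned to −1.48 points and the interval for Pcgf5 included 0. Every pair of these genes in both tables was in cis, that is, with the RNA and the DNA tag on the same chromosome, while 0.345% of all Input pairs and 0.375% of all H3K27me3-RADIP pairs were in trans.

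The RNA tags of Cbx7 and Kdm2b are set out against their annotated starts further on, so the DNA before these starts is shown first. Each line holds the 250 bases before a start on the minus strand, 5′ to 3′, with every CG dinucleotide (CpG) in capitals. Both Kdm2b windows and the inner Cbx7 window are from the RefSeq promoter table of GRCm38.p6, in which all 10 genes were matched by symbol. The outer Cbx7 window was read from the GRCm38.p6 genome at the first base of the GENCODE gene. Positions along Kdm2b were also counted from the first base of its GENCODE gene, which lies before the outer RefSeq start. The outer Cbx7 window held 5 CpG, and 55.6% of 32851 mouse promoter windows of that length held at least as many, whereas the inner window held 23 (13.3% of windows). The outer and inner Kdm2b windows held 27 (8.56%) and 38 (1.88%), against a median of 6.00 over all windows.
Cbx7 outer start, chr15:79971120-79971369: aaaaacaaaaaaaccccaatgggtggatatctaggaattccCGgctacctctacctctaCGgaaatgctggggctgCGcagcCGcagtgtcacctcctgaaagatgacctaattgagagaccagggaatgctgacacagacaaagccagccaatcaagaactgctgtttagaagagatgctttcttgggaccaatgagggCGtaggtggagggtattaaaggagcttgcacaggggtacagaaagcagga
Cbx7 inner start, chr15:79932647-79932896: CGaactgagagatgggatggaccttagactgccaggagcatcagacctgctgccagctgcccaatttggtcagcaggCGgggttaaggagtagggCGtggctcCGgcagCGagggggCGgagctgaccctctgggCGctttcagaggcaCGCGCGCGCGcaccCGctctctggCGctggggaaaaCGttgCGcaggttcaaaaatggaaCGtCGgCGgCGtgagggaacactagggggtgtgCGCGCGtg
Kdm2b outer start, chr5:122989100-122989349: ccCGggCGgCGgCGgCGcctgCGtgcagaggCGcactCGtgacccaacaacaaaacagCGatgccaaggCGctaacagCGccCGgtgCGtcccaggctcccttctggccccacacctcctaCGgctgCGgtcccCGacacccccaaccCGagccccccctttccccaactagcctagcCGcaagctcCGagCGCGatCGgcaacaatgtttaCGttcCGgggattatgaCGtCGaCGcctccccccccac
Kdm2b inner start, chr5:122900351-122900600: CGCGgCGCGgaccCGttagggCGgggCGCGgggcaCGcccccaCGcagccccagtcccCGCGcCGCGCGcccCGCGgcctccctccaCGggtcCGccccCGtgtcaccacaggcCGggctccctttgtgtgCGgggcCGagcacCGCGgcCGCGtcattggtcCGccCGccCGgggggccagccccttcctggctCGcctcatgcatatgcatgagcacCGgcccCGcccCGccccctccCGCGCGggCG

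A pair is listed where the authors' model gave the combination of the RNA and a 25-kb bin of DNA an adjusted value (q) of at most 0.1. No combination of any RNA had fewer than 7 pairs in either table, and none of the PRC1 subunit RNAs had fewer than 8. A bin that 1 table alone lists may therefore have held pairs below this limit in the other. The same holds for Ring1, which had no listed pair in Input or in H3K27me3-RADIP, and for Pcgf2 in H3K27me3-RADIP. As a check of the cell type, Input listed RNA of 6 of 11 mESC marker genes and H3K27me3-RADIP of 7, with 4294 and 4513 pairs. Most of these pairs were from Esrrb (2388 and 2500) and Tet1 (1302 and 1395), so the totals rest largely on these genes. Pou5f1, Nanog, Prdm14 and Dppa4 had none in either table. RNA of 3 and 5 of 9 marker genes of differentiated lineages was listed, with 92 and 156 pairs.

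Among the catalytic subunits, Rnf2 (chr1:151458004-151500955, minus strand, mm10) was the only one with pairs. Rnf2 RNA had 25 Input pairs and 19 H3K27me3-RADIP pairs, with a log2 fold change of −0.43 (−1.37 to 0.49). Both counts are small and the interval includes 0. The pairs lay in the same 2 bins in both tables, and these bins cover the gene except its first stretch, which lies in a bin where no Rnf2 pair was listed. Between the tag centres, the median Input distance was 5.57 kb and the median H3K27me3-RADIP distance 7.96 kb, with the farthest pairs at 29.8 kb and 21.5 kb. All 25 Input DNA tags and 18 of 19 H3K27me3-RADIP DNA tags were inside Rnf2. Intronic RNA tags were 22 of 25 and 15 of 19. Gm36527 overlaps Rnf2 on its own strand, as Gm47773 and Gm9042 overlap Pcgf5. Ring1 (chr17:34020792-34024680, minus strand) is the shortest of the 10 genes, at 3.89 kb, and no DNA tag of any other RNA was listed inside it in either table.

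Pcgf2 encodes MEL18, a PCGF protein of canonical PRC1. Pcgf2 RNA (chr11:97688823-97700497, minus strand) had 13 Input pairs in 1 bin, which also holds the start of Cisd3. Their median distance was 0.763 kb, and 10 of 13 RNA tags were intronic. It was not listed in H3K27me3-RADIP, so no fold change was computed.

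Pcgf3 and Pcgf5 encode PCGF proteins of variant PRC1. Pcgf3 RNA (chr5:108461232-108506976, plus strand) had 101 Input pairs and 85 H3K27me3-RADIP pairs, with a log2 fold change of −0.28 (−0.71 to 0.15). The share over 100 kb was alike in both tables, but the nearer classes differed in opposite directions. At 1 to 10 kb there were 32 Input pairs (31.7%) and 10 H3K27me3-RADIP pairs (11.8%), and under 1 kb there were 5 (4.95%) and 11 (12.9%). All 6 H3K27me3-RADIP bins were among the 7 Input bins, the median distance was 27.3 kb and 28.6 kb, and 15 and 13 pairs were over 100 kb. The bin listed in Input alone, with 11 pairs, holds the starts of Atp5k and Mfsd7a. Upstream DNA tags, before the start of Pcgf3, numbered 17 in Input and 5 in H3K27me3-RADIP.

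Pcgf5 RNA (chr19:36348309-36460970, plus strand) had 72 Input pairs and 90 H3K27me3-RADIP pairs, with a log2 fold change of 0.29 (−0.17 to 0.76). Over all its pairs, the median distance was 9.42 kb in H3K27me3-RADIP, against 24.7 kb in Input. This was so for RNA tags before the innermost RefSeq start (43 and 66 tags), whose medians were 61.3 kb for Input and 6.72 kb for H3K27me3-RADIP. The tags after it (29 and 24) went the other way, with medians of 13.1 kb and 51.8 kb and 2 and 5 pairs over 100 kb. The share over 100 kb was 27.8% in Input (20 of 72, Wilson interval 18.8 to 39.0) and 11.1% in H3K27me3-RADIP (10 of 90, 6.15 to 19.3). The difference was −16.7 percentage points (Newcombe interval −29.0 to −4.51). Over the 3 bins listed in both tables, the difference was −10.4 points (−27.4 to 6.27), an interval that includes 0. A bin inside the gene, chr19:36375001-36400000, held 26 pairs in H3K27me3-RADIP and was not listed in Input. Farther along the gene, chr19:36425001-36450000 held 13 pairs in Input and was not listed in H3K27me3-RADIP. The bin with the most pairs over 100 kb from the gene, chr19:36175001-36200000, had 11 and 10 pairs and holds no start of a protein-coding gene.

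Pcgf6 encodes the PCGF protein of the variant complex that also contains MGA, MAX, E2F6 and L3MBTL2. Pcgf6 RNA (chr19:47033617-47050906, minus strand) had 12 Input pairs and 23 H3K27me3-RADIP pairs. The log2 fold change was 0.91 (−0.16 to 2.05), the largest value among the 8 RNAs, with an interval that includes 0. Of the 23 pairs, 8 lay in a second bin with the starts of Nt5c2 and Ina that was not listed in Input. Distances had a median of 3.72 kb for Input pairs and 15.9 kb for H3K27me3-RADIP pairs, and DNA tags inside Pcgf6 were 9 of 12 (75.0%) and 9 of 23 (39.1%), a change of −35.9 points (−59.3 to −1.22).

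**Figure D1:**
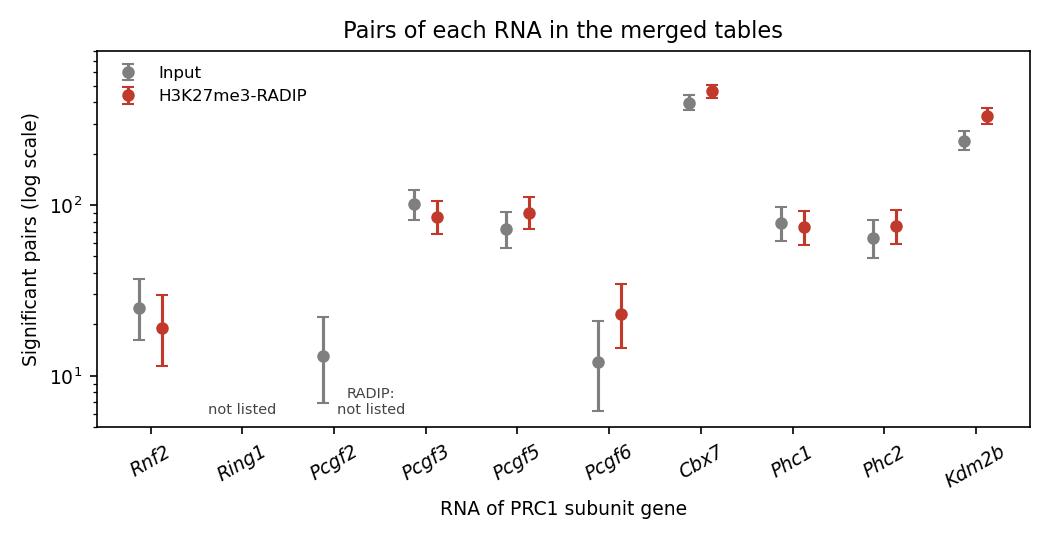
Significant pairs (log scale) of each PRC1 subunit RNA in Input (grey) and H3K27me3-RADIP (red), with exact Poisson 95% intervals for counting error. Cbx7 (398 and 462 pairs) and Kdm2b (238 and 333) stand above the other RNAs, Ring1 is not listed, and Pcgf2 is listed in Input alone.

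Cbx7 encodes a chromodomain protein of canonical PRC1 that binds H3K27me3. Cbx7 RNA (chr15:79915807-79971119, minus strand) had 398 Input pairs and 462 H3K27me3-RADIP pairs, with a log2 fold change of 0.18 (−0.01 to 0.38). This interval includes 0, whereas the distances differed between the tables. For Input pairs the median was 38.9 kb, and the quartiles were 6.64 and 113 kb. For H3K27me3-RADIP pairs the median was 71.6 kb, and the quartiles were 18.9 and 161 kb. The share over 100 kb was 30.2% in Input (120 pairs, 25.8 to 34.8) and 42.6% in H3K27me3-RADIP (197 pairs, 38.2 to 47.2). That is 12.5 points higher (6.04 to 18.8). DNA tags inside Cbx7 itself went the other way, being 179 Input tags (45.0%) against 138 H3K27me3-RADIP tags (29.9%), or −15.1 points (−21.4 to −8.63). The farthest Input pair was at 327 kb and the farthest H3K27me3-RADIP pair at 816 kb.

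By bins, the 3 bins over the Cbx7 gene held 79, 69 and 54 pairs in Input and 47, 58 and 59 in H3K27me3-RADIP, listed from the outer start. The largest difference among them was in the bin of the outer start, which had fewer pairs in H3K27me3-RADIP. Beyond that start, the first bin had 11 and 20 pairs, the next, with Pdgfb, 21 and 34, and the one after it 11 and 24. The bin that follows, chr15:80050001-80075000, had 25 and 24. On the other side, the bin with Nptxr had 20 and 26 pairs, and the bin with Dnal4 had 12 and 20. Lower in H3K27me3-RADIP on that side were chr15:79850001-79875000, with 15 and 8, and chr15:79725001-79750000, with 11 and 10. The bin with the start of Cbx6, another PRC1 gene, begins 65.8 kb from Cbx7 and had 18 and 16 pairs, of which 6 in each table had the DNA tag inside Cbx6. Over 100 kb from the gene, the largest counts were 12 in Input, shared by the Dnal4 bin and chr15:79750001-79775000, and 21 in H3K27me3-RADIP in the latter, which holds no start of a protein-coding gene. The Pdgfb, Nptxr and Cbx6 bins were chosen after their values were seen.

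Of the Cbx7 bins, 16 were listed in both tables, 88.9% of the 18 Input bins and 69.6% of the 23 H3K27me3-RADIP bins. The 7 bins listed in H3K27me3-RADIP alone held 8 to 11 pairs each, near the lowest count listed, and 61 of the 197 pairs over 100 kb were in them. Those with the start of a protein-coding gene were the bins of Josd1 and Gtpbp1 (11 pairs), Mgat3 (9), Slc16a8 (8), Baiap2l2 (8) and, at 741 kb from the gene, Sox10 (9), which encodes a neural crest transcription factor. These genes too were named after their values were seen. Over the 16 shared bins, the share over 100 kb was 27.2% in Input and 33.9% in H3K27me3-RADIP, 6.69 points higher (0.229 to 13.1).

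Kdm2b encodes the CpG-binding subunit of a variant PRC1 and, in its long form, a histone demethylase. Kdm2b RNA (chr5:122870665-122989823, minus strand) had 238 Input pairs and 333 H3K27me3-RADIP pairs. The log2 fold change was 0.45 (0.21 to 0.70), the only single RNA of the 8 whose interval excluded 0, although its value was under the limit of 0.5 used below. It was 0.20 at q of at most 0.01 and 0.16 over bins listed in both tables. Its Input pairs had a median distance of 19.8 kb and its H3K27me3-RADIP pairs one of 38.3 kb. The share over 100 kb was 12.6% in Input (30 pairs, 8.97 to 17.4) and 30.9% in H3K27me3-RADIP (103 pairs, 26.2 to 36.1), 18.3 points higher (11.6 to 24.6). DNA tags inside Kdm2b were 71.8% (171) and 53.8% (179) of its pairs.

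Most of the Kdm2b pairs over 100 kb in H3K27me3-RADIP lay in bins that Input did not list. The 10 bins listed in both tables held 229 pairs in Input and 247 in H3K27me3-RADIP, and 21 and 19 of these were over 100 kb. The share over 100 kb in them was 9.17% and 7.69%, or −1.48 points from Input to H3K27me3-RADIP (−6.68 to 3.59). The 9 bins listed in H3K27me3-RADIP alone held 86 pairs, 84 of them over 100 kb, with 8 to 14 pairs in a bin and 9 or fewer in 7 bins. Shared bins leave out any bin that reached the listing limit in H3K27me3-RADIP alone, so they cannot show pairs gained there. With pairs at q of at most 0.01, the difference in the share over 100 kb was 9.33 points. The bin over 100 kb from the gene with the most pairs was that of P2rx4 in Input (9 pairs, not listed in H3K27me3-RADIP) and that of Rhof and Setd1b in H3K27me3-RADIP (12 pairs, not listed in Input). Setd1b encodes a histone H3 methyltransferase. Nearer to the gene, the bin with Camkk2 had 14 pairs in H3K27me3-RADIP alone and the bin with Rnf34, which overlaps the end of Kdm2b, had 14 and 24. The Camkk2 and Rnf34 bins were chosen after their values were seen.

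**Figure D2:**
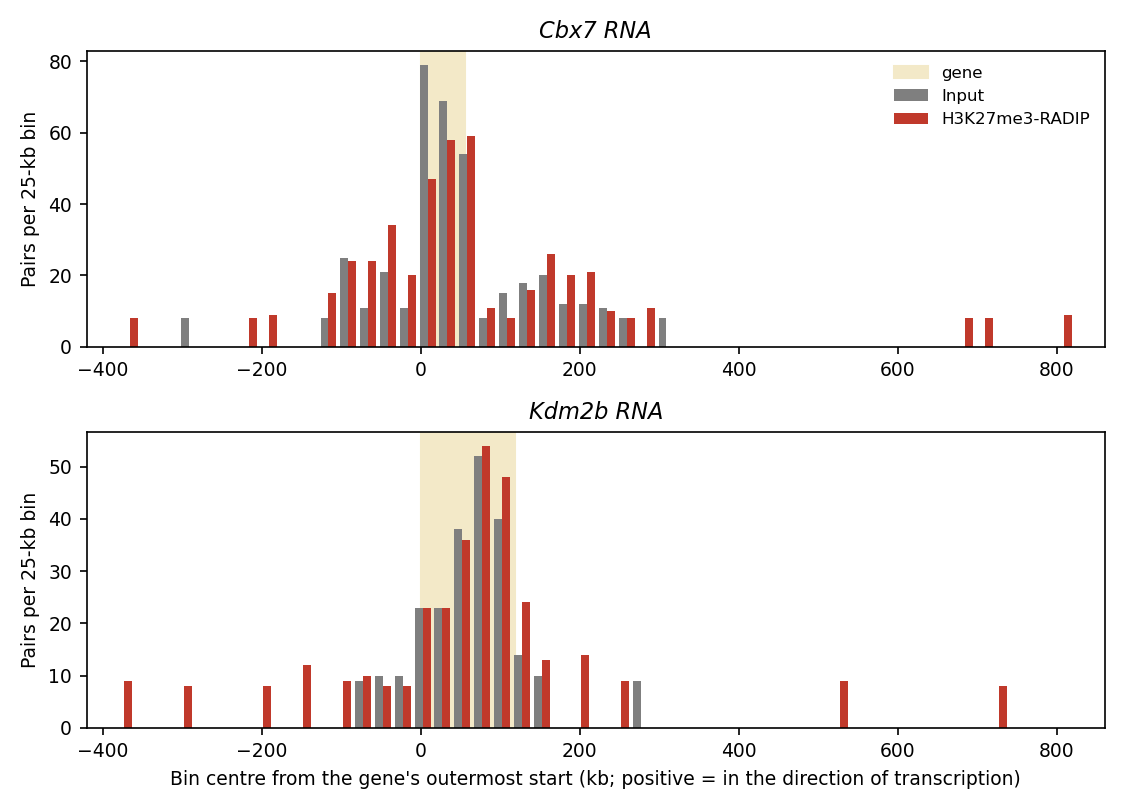
Pairs per 25-kb bin of Cbx7 RNA (top) and Kdm2b RNA (bottom) in Input (grey) and H3K27me3-RADIP (red), against the distance of the bin centre from the outermost annotated start in kb, with the gene shaded. Most pairs are over and beside the gene, and the bins beyond 400 kb, with 8 or 9 pairs each, are listed in H3K27me3-RADIP alone.

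The RNA tags showed which stretch of each gene gave the RNA. Of 9 GENCODE transcript models of Cbx7, 2 begin near the outer start, and the stretch of 38.5 kb before the inner RefSeq start makes up 69.6% of the gene. This stretch gave 290 of 398 Input RNA tags (72.9%, 68.3 to 77.0) and 358 of 462 H3K27me3-RADIP RNA tags (77.5%, 73.5 to 81.1). Most listed Cbx7 RNA was thus from the part that the shorter models lack, and the first 5 kb after the outer start alone gave 90 and 94 tags. Per length, it gave 7.54 tags per kb in Input and 9.31 in H3K27me3-RADIP, against 6.41 and 6.18 tags per kb after the inner start. The share of pairs over 100 kb for tags from the outer stretch was 27.9% in Input (23.1 to 33.4) and 43.3% in H3K27me3-RADIP (38.3 to 48.5). For tags after the inner start it was 36.1% and 40.4%, with overlapping intervals. Whether these changes differ from each other was not tested. Apobec3 overlaps the end of Cbx7 on the other strand. All 1001 Input and 1161 H3K27me3-RADIP RNA tags of the 10 genes lay on the strand of their gene. The authors used the strand to assign RNA tags to genes, so this was fixed in advance and cannot show the source of the RNA.

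In Kdm2b, the inner start marks the short form, which lacks the demethylase domain. Before it lay 187 of 238 Input tags (78.6%) and 248 of 333 H3K27me3-RADIP tags (74.5%), close to the 75.1% of the length that lies there. The tags per kb were 2.09 and 2.77 before the inner start and 1.72 and 2.86 after it. In H3K27me3-RADIP, the stretches of 5 kb with the most tags were those from 105 to 110 kb after the outer start (31, Input 6), from 75 to 80 kb (30, Input 15), from 45 to 50 kb (28, Input 9) and from 70 to 75 kb (25, Input 15). These stretches were chosen after their values were seen. Gm43411 and Gm44574 overlap Kdm2b on its own strand, and the authors assigned each RNA tag to a gene by the position of its centre.

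Among the PRC1 subunit RNAs, the RNA tag position with the most DNA partners in H3K27me3-RADIP was also in Kdm2b. It was chosen for that value and then set beside Input, so its difference between the tables is a description. This tag was in an intron, chr5:122915501-122915525 in the coordinates of the tables, and was joined to 3 DNA positions in 3 bins in Input and to 6 positions in 5 bins in H3K27me3-RADIP. Its partners lay 13.1 to 137 kb away in Input and 1.36 to 445 kb away in H3K27me3-RADIP, so that single RNA stretch was found beside near and far DNA. The sequence below is the RNA strand as DNA letters from GRCm38.p6, and since the tables do not say whether they count from 0 or 1, its ends may be off by 1 base. It holds no CpG, so no letter is in capitals.
Kdm2b RNA tag: gtgatatttccagccacaggttttt

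**Figure D3:**
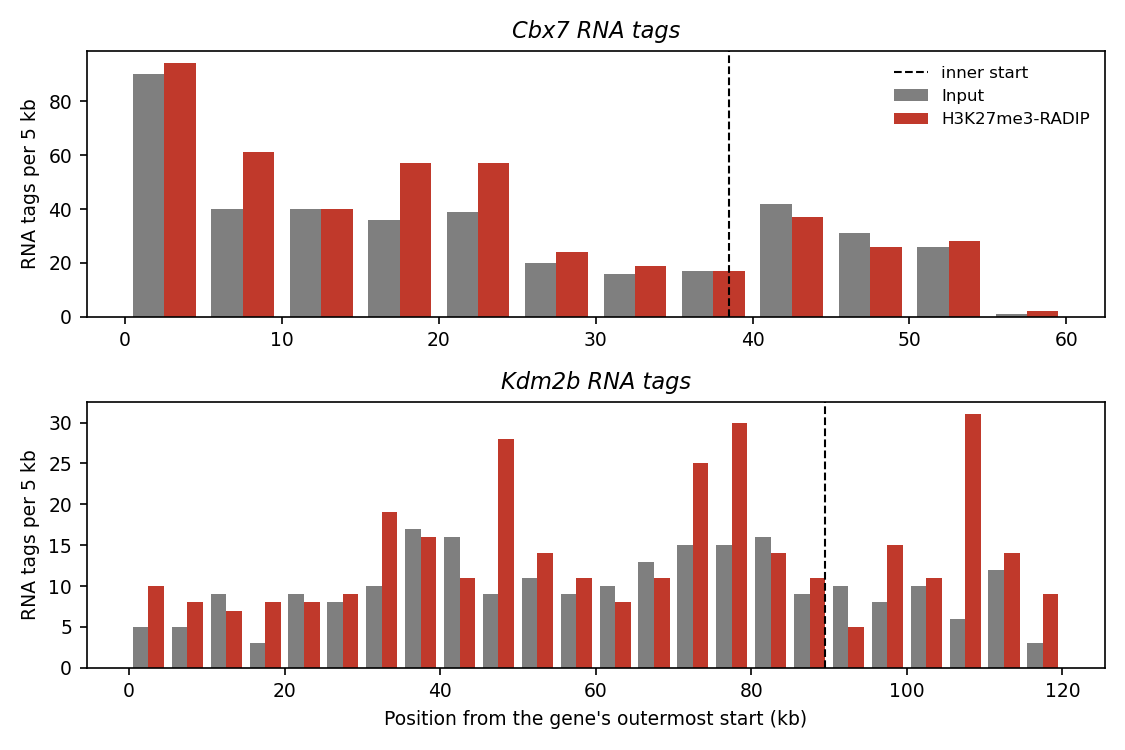
RNA tags per 5 kb along Cbx7 (top) and Kdm2b (bottom) in Input (grey) and H3K27me3-RADIP (red), against the position from the outermost annotated start in kb, with the inner start as a dashed line. Cbx7 tags are most frequent in the first 5 kb (90 and 94 tags), and Kdm2b tags are spread over the gene with up to 31 tags in a stretch in H3K27me3-RADIP.

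Phc1 and Phc2 encode polyhomeotic proteins, whose SAM domains link canonical PRC1 complexes. Phc1 RNA (chr6:122317731-122340561, minus strand) had 78 Input pairs and 74 H3K27me3-RADIP pairs, with a log2 fold change of −0.11 (−0.59 to 0.37). None of its pairs was over 100 kb, and the median distance was 8.39 kb and 12.3 kb. Phc1 RNA had the lowest intronic share of the 9 RNAs in Input and of the 8 in H3K27me3-RADIP, with 51 of 78 tags (65.4%, 54.3 to 75.0) and 50 of 74 (67.6%, 56.3 to 77.1). These intervals overlap those of Rnf2, Pcgf2 and Pcgf6 in Input and of Rnf2, Pcgf3 and Pcgf6 in H3K27me3-RADIP. Coding-sequence tags of Phc1 RNA were 15 and 14. Phc2 RNA (chr4:128654702-128752881, plus strand) had 64 and 75 pairs, a log2 fold change of 0.20 (−0.30 to 0.70). It stayed close to its gene, with 51 of 64 and 62 of 75 DNA tags inside Phc2 and 1 Input pair over 100 kb. Before its innermost RefSeq start lay 44 of 64 Input tags (68.8%, 56.6 to 78.8) and 39 of 75 H3K27me3-RADIP tags (52.0%, 40.9 to 62.9), with overlapping intervals, beside 74.2% of the length.

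Levels between genes were compared as pairs per 1000000 pairs of the table and per kb of gene. In Input, Cbx7 was highest at 5.51 (4.98 to 6.08), followed by Phc1 at 2.62 (2.07 to 3.27). Pcgf3 at 1.69 (1.38 to 2.06) and Kdm2b at 1.53 (1.34 to 1.74) came next and did not differ beyond their intervals. Pcgf2, Pcgf6, Phc2, Pcgf5 and Rnf2 were between 0.446 and 0.853, each with an interval that overlapped its neighbour's. In H3K27me3-RADIP, Cbx7 was at 5.90 (5.38 to 6.47), and Phc1 at 2.29 (1.80 to 2.88) and Kdm2b at 1.97 (1.77 to 2.20) did not differ beyond their intervals. Rnf2 had the lowest value of those listed in both tables, at 0.313 (0.188 to 0.488), an interval that overlaps those of Phc2 and Pcgf5.

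In comparison with other protein-coding RNAs (pcRNAs, introns included), the PRC1 subunit RNAs did not stand apart by pair number. The limit for a difference was a log2 fold change of 0.5 either way after TMM scaling, a trimmed mean of the log ratios of shared pcRNAs. Of the 8 subunit RNAs in both tables, 1 (Pcgf6) was past the limit toward H3K27me3-RADIP, where 20.2% of 8158 shared pcRNAs were. At q of at most 0.01 this was Pcgf5 (0.69) and no longer Pcgf6 (0.30). None was past it toward Input, where 21.9% of the shared pcRNAs were. The median log2 fold change was 0.19 over the 8 RNAs and −0.01 over all shared pcRNAs.

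**Figure D4:**
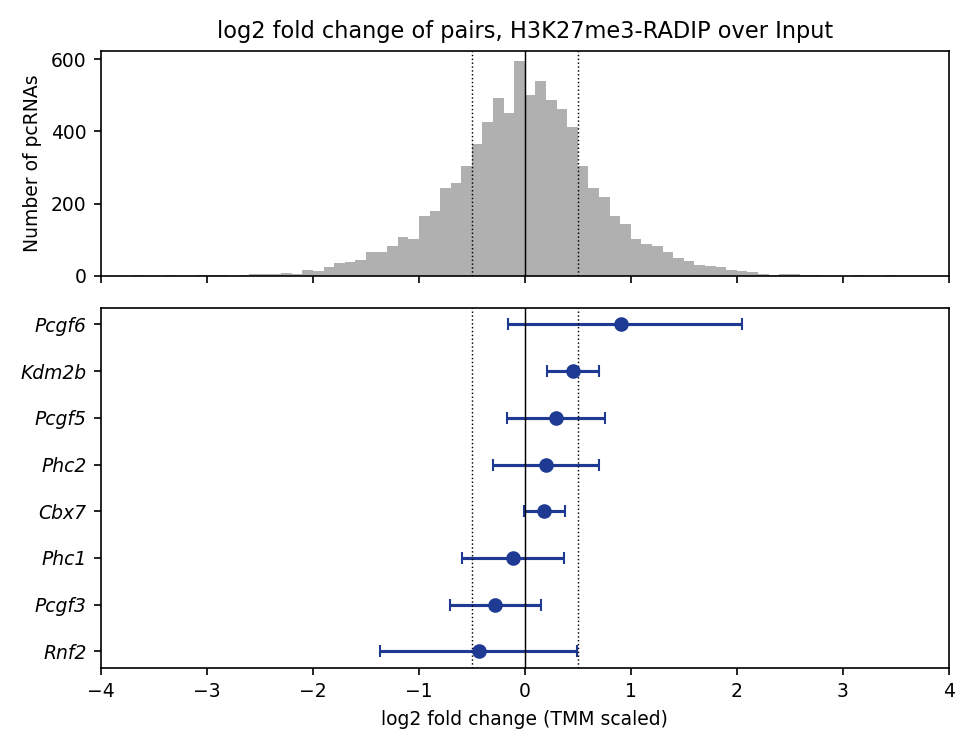
Log2 fold change of pairs, H3K27me3-RADIP over Input, for 8158 shared pcRNAs (top, number of pcRNAs per step) and for the 8 PRC1 subunit RNAs in both tables (bottom, points with 95% counting intervals), with dotted lines at the limit of 0.5. Pcgf6 alone is past the limit, with an interval that reaches below 0.

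The median cis distance was longer in H3K27me3-RADIP for 7 of the 8 subunit RNAs, and 69.5% of 6916 pcRNAs with at least 10 cis pairs in both tables had a longer one as well. Pcgf5 was the exception. By mean distance the count was 5 of 8, where it was 68.3% of all these pcRNAs. At q of at most 0.01 it was 6 of 8, beside 69.6% of pcRNAs. Over bins listed in both tables it was also 6 of 8, beside 66.6%. The median ratio of the distances was 1.45 over the 8 RNAs and 1.34 over all these pcRNAs. The 8 RNAs together had 18.8% of pairs over 100 kb in Input (186 of 988) and 27.8% in H3K27me3-RADIP (323 of 1161), 8.99 points higher (5.42 to 12.5), and without Cbx7 and Kdm2b the difference was −3.94 points (−8.10 to 0.102). Over bins listed in both tables, the difference for the 8 RNAs was 2.19 points, and at q of at most 0.01 it was 5.44 points. Over all pcRNA pairs, the shares were 36.4% and 43.7%, and the joint share of the PRC1 subunit RNAs was smaller than this pooled share in both tables. The interval for Cbx7 in H3K27me3-RADIP (38.2 to 47.2) includes 43.7%. RNAs with many pairs weigh most in the pooled share, and shares of single pcRNAs were not compared. The intronic share of RNA tags was 86.7% and 86.0%, a difference of −0.781 points (−3.67 to 2.16), against 88.9% and 89.6% over all pcRNA pairs.

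**Figure D5:**
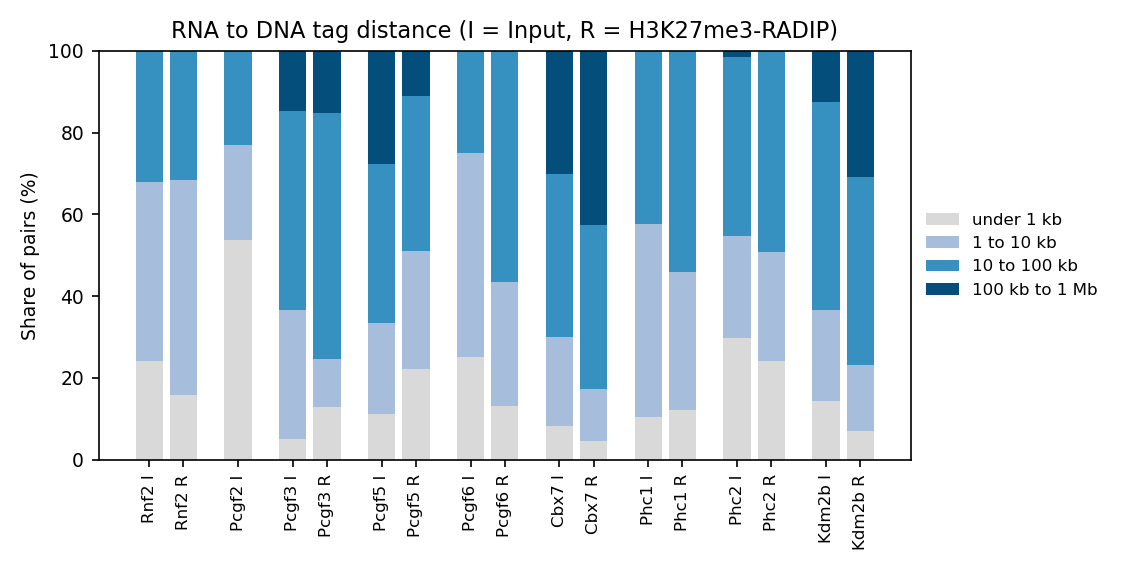
Share of pairs (%) by distance between the RNA tag and the DNA tag for each PRC1 subunit RNA in Input (I) and H3K27me3-RADIP (R). The share from 100 kb to 1 Mb is larger in H3K27me3-RADIP for Cbx7 (30.2% and 42.6%) and Kdm2b (12.6% and 30.9%) and smaller for Pcgf5 (27.8% and 11.1%).

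Of the 66 bins of the 10 genes' RNAs in H3K27me3-RADIP, 44 (66.7%) were also listed in Input, and these were 81.5% of the 54 Input bins. Over all RNAs, 66.1% of the combinations in H3K27me3-RADIP and 75.8% of those in Input were shared. Of the 22 bins listed in H3K27me3-RADIP alone, 15 held 9 pairs or fewer, as did 6 of the 10 listed in Input alone.

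Other RNAs were also paired with DNA inside the 10 genes. No other RNA was listed inside Ring1, Pcgf5 or Kdm2b in either table. Inside Rnf2, the RNA of its neighbour Fam129a had 19 Input and 5 H3K27me3-RADIP pairs. Inside Pcgf2, whose own RNA was not listed in H3K27me3-RADIP, other RNAs had 8 Input pairs, all from Mllt6, and 16 H3K27me3-RADIP pairs, from Mllt6 (10), Arhgap23 (5) and Psmb3 (1). Inside Pcgf3, RNA of the nearby kinase gene Gak had 4 Input and 14 H3K27me3-RADIP pairs. RNA of Mtf2, a PRC2 cofactor gene, had 8 pairs there in Input alone, a small count, and no link of PRC2 to PRC1 was tested. Inside Cbx7, other RNAs had 13 pairs in Input, all from Apobec3, and 15 in H3K27me3-RADIP, from Rpl3 (8) and Apobec3 (7). Inside Pcgf6, Ina RNA had 6 and 3 pairs, and inside Phc1, other RNAs had 12 and 4. Inside Phc2, other RNAs had 9 pairs in H3K27me3-RADIP alone, 8 of them from Csmd2.

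The RNAs whose H3K27me3-RADIP bins were most like those of a subunit RNA were ranked by the Jaccard index, the shared bins over all bins of either RNA. For Pcgf3 this was Gak, with an index of 0.50 and 6 shared bins, followed by Mtf2 with 0.0455 and 1 shared bin. For Cbx7 it was Gtpbp1 (0.174, 4 shared bins) and Rpl3 (0.130, 3 shared bins). For Kdm2b, Rhof and Setd1b each had 0.100 with 2 shared bins, and for Phc2, A3galt2 had 0.200 and Csmd2 had 0.0294 with 1 shared bin each. None of the 5 Pcgf5 bins was shared with another RNA. The starts of Gtpbp1, Rpl3, Rhof, Setd1b and A3galt2 lie in bins of the subunit RNA itself. A3galt2 RNA had 1 bin in all, and Rpl3, Rhof and Setd1b RNA had 3 each. The index therefore does not separate nearness on the chromosome from shared targets.

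Other genes of PRC1 and of the H2AK119ub pathway were counted from a list of 36. Input listed RNA of 31 of them, H3K27me3-RADIP listed 30, and 28 were in both. Of these 28, 1 was past the limit toward H3K27me3-RADIP and 7 toward Input, where the shares over all shared pcRNAs were 20.2% and 21.9%. The median log2 fold change was 0.03 over the 28 and −0.01 over all shared pcRNAs. Bcor, which encodes the corepressor of the PCGF1 complex, had 308 and 589 pairs, a log2 fold change of 0.90 (0.70 to 1.11). L3mbtl2 and Max, which encode partners of PCGF6, had values of −0.73 (−1.20 to −0.26) and −0.56 (−1.10 to −0.03). Skp1a, which encodes a partner of KDM2B, had −0.87 (−1.54 to −0.22), and Mysm1, which encodes an H2A deubiquitinase, had −1.15 (−1.76 to −0.56). The listed RNAs with the most pairs were Auts2 (2138 and 2752 pairs, 0.33), Usp7 (1311 and 1561, 0.22) and Fbrsl1 (945 and 1115, 0.21). The other 3 past the limit toward Input had fewer than 50 pairs in both tables. Among 12 PRC2 genes, 9 had RNA in both tables, and 6 of these were past the limit toward Input and none toward H3K27me3-RADIP, with a median log2 fold change of −0.70, beside the same shares and median over all shared pcRNAs.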

How the data were processed

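H3K27me3-RADIP and Input were compared as the 2 merged tables that the authors deposited. The authors split reads at the bridge adaptor, mapped both sides to mm10 and kept uniquely mapped pairs. They annotated RNA tags with GENCODE M25, placed DNA tags in 25-kb bins and retained pairs with q of at most 0.1. The values deposited per pair are a p-value and a q-value from a modified negative binomial model, and no counts per RNA are given, so pairs were counted here. The submitters' processing notes list BWA 0.7.15-r1140.

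The PRC1 subunit genes and all gene lists were chosen with earlier results of these data known. Pairs were matched by RNA name. The bin was taken from the centre of the DNA tag, and distances were between tag centres. Gene positions were from GENCODE M21, an older release on the same build, in which the identifiers of the 9 RNAs with pairs had the same version. TMM scaling of pair counts trimmed 30% of log ratios and 5% of mean levels, and the code was checked on simulated tables (seed 1, 200 changed RNAs). Intervals were Clopper–Pearson for folds, Wilson for shares, Newcombe for differences of shares and exact Poisson for counts, all at 95%. They cover counting error only, and PCR copies cannot be told from separate molecules. No test was run, since each table is a merger. The depth was 1305107 Input and 1415135 H3K27me3-RADIP pairs.

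The text names all 10 genes, other PRC1 genes with at least 50 pairs in either table and past the limit, the 3 of them with the most pairs, for RNAs with at least 5 bins the 2 RNAs with the most similar bins, and genes starting in the fullest bin over 100 kb away. Genes named for starting in other bins, or for RNAs paired inside the 10 genes, were chosen after their values were seen. Alternatives were other scalings, a fold limit of 1, a q limit of 0.01, repeated tag positions counted once, bins listed in both tables, a minimum of 50 pairs, gene identifiers, distance to the gene edge, mean distance, bins of 100 kb and genes extended by 25 kb. Leaving out Cbx7 and Kdm2b was chosen after seeing the data. Python 3.11.15, numpy 2.4.6, pandas 2.3.3, scipy 1.17.1 and matplotlib 3.10.9 were used.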

Additional observations from a re-analysis of the deposited data

How the results depend on the processing

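No paired analysis was possible because the libraries of each group were merged into 1 table by the authors. Of 104 values recomputed under an alternative, 93 stayed within the counting interval of the reported value or, for counts, within 1.5 times of it. This number overstates the stability. Some values could hardly move, such as fold changes by gene identifiers and the shares over 100 kb of Rnf2, Pcgf6 and Phc1, which were 0 throughout. Others stayed because their intervals are wide, such as the Pcgf6 log2 fold change, at 0.91 and, at q of at most 0.01, 0.30. The 1 RNA past the fold limit toward H3K27me3-RADIP (Pcgf6) became 0 with a log2 limit of 1, over bins listed in both tables and with at least 50 pairs together. At q of at most 0.01 the count was again 1, but of Pcgf5 (0.69), with Pcgf6 at 0.30. With total pairs as the scale, 1 RNA (Rnf2, −0.51) was past the limit toward Input, where 0 were reported. Without Cbx7 and Kdm2b, the joint log2 fold change was 0.02 in place of 0.20, and the difference in the share of pairs over 100 kb was −3.94 points in place of 8.99. That difference was 2.19 points over bins listed in both tables and 5.44 at q of at most 0.01. By mean distance, 5 in place of 7 of the 8 RNAs had a longer distance in H3K27me3-RADIP, beside 68.3% in place of 69.5% of pcRNAs. For Kdm2b alone the difference in the share over 100 kb was 9.33 points at q of at most 0.01, in place of 18.3. Over bins listed in both tables it was −1.48 points. The Kdm2b log2 fold change was 0.20 and 0.16 under the same settings, in place of 0.45. For the last setting the pairs removed are those in bins that 1 table alone lists, and for the others the cause was not tested. Rnf2, Pcgf2 and Pcgf6 had 25 pairs or fewer per table, so moderate differences were not detectable for them at this depth.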
